A study of Mus musculus with 9 samples.

Results

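The genes followed here encode proteins of the nuclear lamina, the mesh under the inner nuclear membrane, and of the membrane around it. They are 10 mouse genes, Lmna, Lmnb1, Lmnb2, Lbr, Emd, Tmpo, Banf1, Sun1, Sun2 and Lemd3, taken by symbol from the 24062 genes of the deposited count table. All 10 were in the table, and all 10 were among the 14572 genes that passed the filter on low counts. RNA was sequenced from C57BL/6 mouse embryonic fibroblasts in 9 libraries. The 3 control libraries came from cells given an empty lentiviral vector, 3 libraries came from cells overexpressing p21 by lentivirus, and 3 came from cells overexpressing p16 by lentivirus, all collected at day 10. The p21 and p16 cells are labelled senescent, and so is the cell status of the controls. p21 and p16 are inhibitors of cyclin-dependent kinases, encoded by Cdkn1a and Cdkn2a. The labels do not name the promoter in the vector, or the number of embryos or cultures behind a library. The p-values below therefore measure the spread between these libraries, part of which may be technical.

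Lamins are intermediate filament proteins that line the nucleus. Lmna gives the A-type lamins A and C by alternative splicing, and Lmnb1 and Lmnb2 give the B-type lamins, which stay attached to the membrane through a farnesyl tail. Lamin B receptor, the LEM domain proteins (emerin from Emd, LAP2 from Tmpo, MAN1 from Lemd3) and the DNA-bridging protein BAF (from Banf1) tie the membrane to lamins and chromatin. SUN1 and SUN2 cross the inner membrane and hold nesprins, which reach to the cytoskeleton. Loss of lamin B1 is a widely used marker of senescent fibroblasts.

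The libraries held 56864342 to 76054820 counts. The genes given stood high in the groups labelled for them, with Cdkn1a at 1130 ± 76.4 CPM (counts-per-million of the TMM-scaled library total) in p21 cells against 366.2 ± 43.6 in controls (SD, n = 3), and Cdkn2a at 1017 ± 64.6 CPM in p16 cells against 63.08 ± 5.03. Counts of these genes pool transcripts from the vector and from the cells' own locus. The summed level of 12 fibroblast markers, such as the collagen gene Col1a1, was 35620 to 51260 CPM in control libraries. It was 51850 to 55470 CPM in p21 and 47300 to 54320 CPM in p16 libraries. In p21 cells 3 of the 12 were called lower than in controls and 2 higher, against 20.7% and 19.3% of all genes tested. The summed level of the 11 of 12 macrophage markers in the table was 12.65 to 15.31 CPM in control, 24.76 to 44.28 CPM in p21 and 10.54 to 14.49 CPM in p16 libraries. None of the 11 was at 0 in any group. In p21 cells 7 were called higher than in controls (adjusted p below 0.05), against 19.3% of all genes tested. The 9 skeletal muscle markers summed to 178.6 to 218.4 CPM in control, 494.6 to 597.5 in p21 and 348.8 to 367.9 in p16 libraries, with Myog at 0 in the control and p16 groups. Acta1 (means 112.8, 348.6 and 199.8 CPM in control, p21 and p16) and Des (87.36, 209.6 and 153.4) made up most of that sum. The other 3 muscle markers tested did not pass between p21 and control cells. Endothelial and epithelial markers summed to at most 14.18 and 88.47 CPM in any library. The part of such cells in the results below was not tested, and in bulk RNA fewer cells of a type and less RNA per cell cannot be told apart. Replicate 3 of each group stood apart in sex-linked transcripts, with Xist at 157.8 to 396.8 CPM against at most 1.344 CPM in the other libraries. Y-linked Ddx3y was at 1.102, 1.265 and 10.77 CPM in replicate 3 of control, p16 and p21. It was at 50.08 to 68.54 CPM in the other libraries. Replicate 3 of p21 thus held Xist (157.8 CPM) and some Ddx3y. For this reason, calls that changed without replicate 3 of all groups are given with the gene.

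Lmna was the most abundant of the 10 transcripts when levels were scaled to length (CPM per kilobase of merged coding-transcript exons in GENCODE M21). In control cells it stood at 310.4 ± 12.2 CPM per kilobase. Banf1 followed at 66.1 ± 5.05, then Sun2 at 38.27 ± 2.03, Emd at 36.38 ± 0.227 and Lmnb1 at 32.4 ± 4.02 CPM per kilobase. Sun2 and Emd overlapped between control libraries, as did Emd and Lmnb1. Tmpo (17.94 ± 1.67), Sun1 (17.03 ± 0.889) and Lbr (14.56 ± 1.42 CPM per kilobase) came next, with overlap between neighbours, and Lmnb2 (9.713 ± 0.186) and Lemd3 (4.345 ± 0.393 CPM per kilobase) were lowest. In p21 cells the order changed in the middle. Sun1, at 15.69 ± 0.365 CPM per kilobase, then stood level with Lmnb1 at 15.57 ± 1.51, the libraries of these 2 genes overlapping, whereas Lmnb1 lay above Sun1 in all control libraries. The middle of this order depends on the merged lengths used. Without length scaling, Tmpo stood above Lmnb1 in control cells (116.2 ± 10.8 against 92.12 ± 11.4 CPM). Sun1 then stood above Lmnb1 in control replicate 3 (88.88 against 83.58 CPM) but not in the other control libraries.

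Promoter sequences are shown for 3 of the 5 members that fell in both groups (Lbr, Tmpo, Lmnb2) and, beside them, for 2 that did not pass (Lmna, Lemd3). The windows of Banf1, which also fell in both groups, are described but not printed. RefSeq promoter windows on GRCm38.p6, 250 bases before to 50 bases after a transcript start, matched 9 of the 10 genes in 14 windows, all but Lmnb1. They were searched on both strands for the CHR element TTTGAA, bound by the MuvB complexes that repress cell cycle genes, for E2F-like letters (TTCCCGC and its variants TTGGCGC and also TTCGCGC and, last, TTGCCGC) and for CCAAT, the NF-Y box. Matches are in capitals, as read on the strand of the gene, and no matches of different kinds overlapped in these windows. The printed windows are, in GRCm38 coordinates, chr1:181842352-181842651 (Lbr, minus strand), chr10:91171570-91171869 (Tmpo, minus strand, within 250 bases of 5 of its coding transcript starts), chr10:80918196-80918495 (Lmnb2, minus strand), chr3:88503303-88503602 (Lmna, minus strand) and chr10:120979281-120979580 (Lemd3, minus strand).
Lbr: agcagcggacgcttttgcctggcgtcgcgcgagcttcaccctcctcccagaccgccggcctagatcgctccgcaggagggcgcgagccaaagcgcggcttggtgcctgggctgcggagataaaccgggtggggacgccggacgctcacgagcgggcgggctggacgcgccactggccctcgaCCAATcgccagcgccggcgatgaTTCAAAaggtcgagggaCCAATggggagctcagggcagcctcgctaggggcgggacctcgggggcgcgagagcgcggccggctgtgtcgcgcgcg
Tmpo: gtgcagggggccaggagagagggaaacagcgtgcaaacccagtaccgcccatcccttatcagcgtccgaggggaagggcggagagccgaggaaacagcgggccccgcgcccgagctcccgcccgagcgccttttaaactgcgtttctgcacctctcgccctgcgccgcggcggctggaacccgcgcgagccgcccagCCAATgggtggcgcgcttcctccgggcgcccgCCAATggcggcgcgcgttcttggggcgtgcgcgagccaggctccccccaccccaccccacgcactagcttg
Lmnb2: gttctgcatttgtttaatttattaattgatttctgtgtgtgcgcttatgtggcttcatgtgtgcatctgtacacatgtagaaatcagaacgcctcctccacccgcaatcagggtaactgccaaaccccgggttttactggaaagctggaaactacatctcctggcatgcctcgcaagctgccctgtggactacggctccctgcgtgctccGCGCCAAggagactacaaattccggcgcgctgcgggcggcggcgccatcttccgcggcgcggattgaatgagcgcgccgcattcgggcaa
Lmna: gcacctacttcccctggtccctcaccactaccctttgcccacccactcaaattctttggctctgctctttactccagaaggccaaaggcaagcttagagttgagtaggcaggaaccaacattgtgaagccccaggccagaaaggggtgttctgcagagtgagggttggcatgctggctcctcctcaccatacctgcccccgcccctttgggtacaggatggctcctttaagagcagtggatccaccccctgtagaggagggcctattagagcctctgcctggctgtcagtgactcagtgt
Lemd3: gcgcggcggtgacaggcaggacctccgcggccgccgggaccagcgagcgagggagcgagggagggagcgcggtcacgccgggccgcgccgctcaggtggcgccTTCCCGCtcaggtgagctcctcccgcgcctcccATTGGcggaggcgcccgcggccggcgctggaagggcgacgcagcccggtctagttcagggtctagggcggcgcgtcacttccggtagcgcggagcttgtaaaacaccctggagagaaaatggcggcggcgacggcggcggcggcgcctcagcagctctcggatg

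The Lbr window held CHR letters starting 45 bases before the start site, on the opposite strand, between CCAAT boxes at -68 and -28. The Sun2 window also held both, but with CHR letters at -95, before the CCAAT boxes at -85 and -41. Among all 32851 windows, 6.95% held both CHR and CCAAT letters. A second Tmpo window (chr10:91170501-91170800) had CHR letters at -28 and TTCCCGC at -194 and -83. No coding transcript start of Tmpo lay within 250 bases of the start site of that second window. The printed Tmpo window held CCAAT at -53 and -21, the Lmnb2 window 1 E2F-like match at -40, and the printed Lmna window none of the 3 motifs, while a second Lmna window (chr3:88493263-88493562) held CCAAT at -131. Lemd3, whose level did not pass in any comparison, held TTCCCGC at -147 and CCAAT at -114. For Banf1, the window at chr19:5366827-5367126 held CCAAT at -185 and TTCCCGC at -80, with no coding transcript start within 250 bases. The window at chr19:5366314-5366613, within 250 bases of 2 Banf1 coding transcript starts, held none of the 3 motifs. Of the 14 windows, 3 held CHR letters, 4 held E2F-like letters and 9 held CCAAT. Among all 32851 windows of this length the shares were 17.9%, 9.57% and 37.4%. A match is a string of letters and no evidence of binding.

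The first comparison asked how p21 cells differed from empty-vector cells. Of the 10 lamina genes, 7 fell in p21 cells, none rose and 3 did not pass (edgeR quasi-likelihood test, Benjamini-Hochberg adjusted p below 0.05 over all genes tested). Across all genes tested, 20.7% were called lower and 19.3% higher. The 10 genes and the lists below were chosen with earlier results of these data known. Their shares beside those of all genes are therefore a description. Lmnb1 fell by 52%, Tmpo fell by 50.4%, Lmnb2 fell by 44.5% and Lbr fell by 43.8%, whereas Emd, Banf1 and Sun2 fell by less and Lmna, Sun1 and Lemd3 did not pass. The median log2 fold change of the 10 was -0.393, against -0.0113 over all genes tested. Lmnb1 and Tmpo fell at least 2-fold, as did 1.94% of all genes tested. All libraries of p21 cells lay below all control libraries for 9 of the 10 genes, Lemd3 being the exception, and for 25.7% of genes tested. The 7 calls were kept in all 16 alternative fits, including the one with replicates 1 and 2 of each group.

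The second comparison asked the same of p16 cells, with the same 3 control libraries. Here 5 of the 10 genes fell, Lmnb1, Lmnb2, Lbr, Tmpo and Banf1, and none rose, against 3.65% of all genes called lower and 3.57% higher. The median log2 fold change of the 10 was -0.192, against -0.00974 over all genes. All p16 libraries lay below all control libraries for 7 of the 10, and for 15.1% of genes tested. With replicates 1 and 2 alone, 4 of the 5 calls were kept, all but that of Banf1. Between 2 and 5 members were called when single libraries were left out. Lmnb2 and Tmpo were the 2 called without p16 replicate 3, and 3 were called without p16 replicate 1 or 2. Scaling by library size alone called 5 members and, over all genes, 444 higher and 683 lower, against 520 and 532 with TMM. The replicate block, with same-numbered libraries taken as pairs, called 6 members, 1252 genes higher and 1221 lower.

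The third comparison set p21 cells against p16 cells and so tested whether these groups differed. Over controls, Cdkn1a was 3.086-fold higher in p21 cells and Cdkn2a 16.11-fold higher in p16 cells. Dose and kind of protein therefore cannot be told apart. Cdkn2a was also 1.516-fold higher in p21 cells than in controls (adjusted p = 0.0027). The counts pool the 2 coding transcripts of Cdkn2a, so they do not show which of them was higher. Of the 10 genes, 7 were lower in p21 cells and none was higher, against 6.64% and 6.19% of all genes tested. They were Lmnb1, Lmnb2, Lbr, Tmpo, Emd, Banf1 and Sun2. The median log2 difference was -0.23, against -0.00663 over all genes. The libraries did not overlap for these 7 genes, in the lower direction, and for 18.5% of genes tested. Levels ran from control through p16 to p21 without any overlap between libraries for 6 of the 10 genes (Lmnb1, Lmnb2, Lbr, Tmpo, Emd and Banf1) and for 7.78% of genes tested. With replicates 1 and 2 alone, 5 of the 7 calls were kept, all but those of Banf1 and Sun2. Without p21 replicate 1, 4 of the 7 calls were kept, those of Lmnb1, Lmnb2, Lbr and Tmpo. With the replicate block the count of members stayed at 7, while 1715 genes were called higher and 1781 lower, against 902 and 968.

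**Figure D1:**
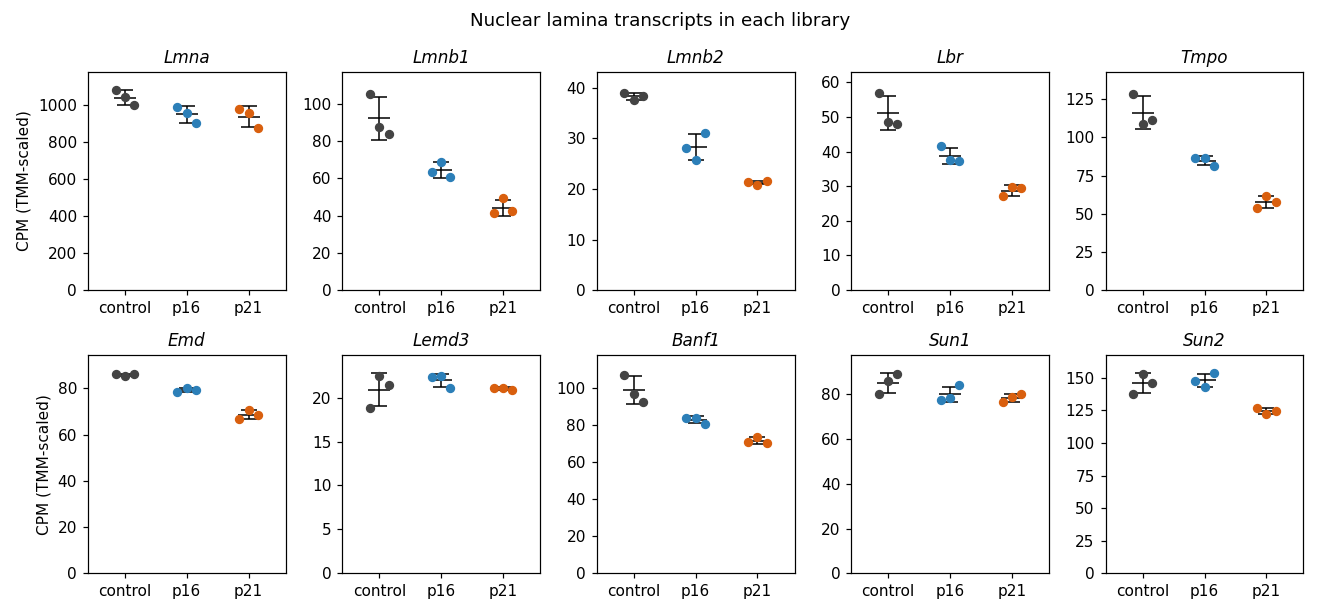
Level of each of the 10 genes in each library (vertical axes, CPM after TMM scaling, each from 0; points, libraries 1 to 3 from left to right; cross and whiskers, mean and SD, n = 3) in control, p16 and p21 cells. Lmnb1, Lmnb2, Lbr and Tmpo step down from control to p16 to p21 without overlap, and Lemd3 overlaps in all 3 groups.

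**Figure D2:**
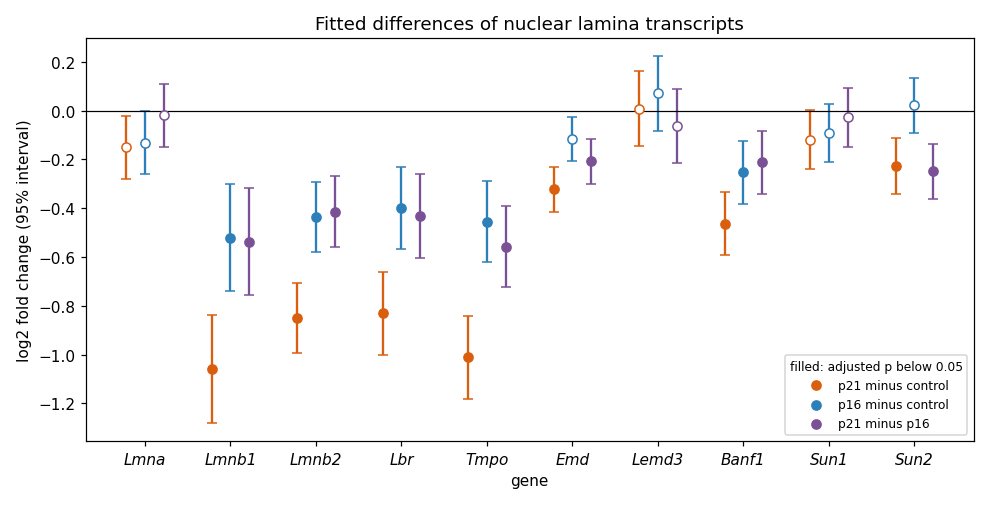
Fitted log2 fold change of each gene (vertical axis; horizontal axis, genes) in the comparisons of p21 with control, of p16 with control and of p21 with p16, with unadjusted 95% intervals. Filled points passed an adjusted p of 0.05: 7, 5 and 7 of the 10 genes, all below 0.

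Among the lamins, Lmnb1 (chromosome 18, 56707813 to 56753424, plus strand, GRCm38) encodes lamin B1. It stood at 105.1, 87.69 and 83.58 CPM in control replicates 1 to 3, at 63.4, 68.86 and 60.45 CPM in p16 and at 41.3, 49.17 and 42.31 CPM in p21 libraries. Control replicate 1 was the highest library, and no p16 library reached a control or fell to a p21 library. Lmnb1 was 2.081-fold lower in p21 cells than in controls (log2 difference -1.06, SE 0.0988, adjusted p = 5.44e-05) and 1.434-fold lower in p16 cells (-0.52 ± 0.0977, adjusted p = 0.0176). The level was 1.451-fold lower in p21 than in p16 cells (-0.54 ± 0.0983, adjusted p = 0.00882). The difference for p16 no longer passed when its replicate 1 (adjusted p = 0.066) or its replicate 3 (adjusted p = 0.0592) was dropped, the log2 fold change then being -0.506 and -0.474.

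Lmnb2 (chromosome 10, 80901203 to 80918245, minus strand), the gene of lamin B2, had the tighter control libraries, at 38.95, 37.49 and 38.36 CPM. Its p16 libraries stood at 28.16, 25.79 and 30.95 CPM and its p21 libraries at 21.39, 20.82 and 21.53 CPM. The spread was widest in p16 cells, where the SD was 2.58 CPM against 0.735 in control and 0.38 in p21 cells, and the groups did not overlap. It was 1.801-fold lower in p21 cells (log2 difference -0.85, SE 0.0645, adjusted p = 2.02e-05), 1.352-fold lower in p16 cells (-0.44 ± 0.0639, adjusted p = 0.00774) and 1.332-fold lower in p21 than in p16 cells (adjusted p = 0.0043). These 3 calls were kept in all 16 alternative fits.

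Lmna (chromosome 3, 88480147 to 88509956, minus strand) did not pass in any of the 3 comparisons, and the counts do not separate lamin A from lamin C. Its control libraries stood at 1078, 1040 and 996.2 CPM, its p16 libraries at 989.1, 954.4 and 898.8 CPM and its p21 libraries at 977.9, 954.3 and 874.1 CPM. In both cases all libraries lay below the lowest control library, by a margin narrower than the spread within groups, and p16 and p21 libraries overlapped. The fitted difference was -0.15 ± 0.0577 for p21 (adjusted p = 0.063) and -0.13 ± 0.0577 for p16 (adjusted p = 0.193), and -0.02 between p21 and p16 cells (adjusted p = 0.87, 95% interval -0.1473 to 0.1105). The p21 difference passed with scaling by library size alone (adjusted p = 0.0188). The p16 difference passed with the replicate block (adjusted p = 0.0396).

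The balance of A-type to B-type lamin transcripts was higher in both overexpressing groups. The ratio of Lmna to Lmnb1, each per kilobase, was 8.716, 10.08 and 10.13 in the control libraries, 13.26, 11.78 and 12.64 in p16 and 20.12, 16.5 and 17.56 in p21 libraries. The groups did not overlap in this ratio. On the log2 scale its mean was 0.9035 higher in p21 than in control libraries, a 1.871-fold difference, 0.3828 higher in p16 than in control libraries, and 0.5207 higher in p21 than in p16 libraries. Each two-sided exact permutation test gave p = 0.1, the smallest that 3 libraries against 3 allow, so none could pass 0.05, and adjustment over the 3 comparisons leaves p at 0.1. Lmna made up 88.07% ± 0.664 of the length-scaled lamin transcripts in control, 90.48% ± 0.404 in p16 and 93.02% ± 0.516 in p21 cells (SD, n = 3). The share of Lmnb1 was 9.173% ± 0.731, 7.22% ± 0.408 and 5.184% ± 0.491 in the same order. A ratio within a library shows unequal change and does not show which gene changed.

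**Figure D3:**
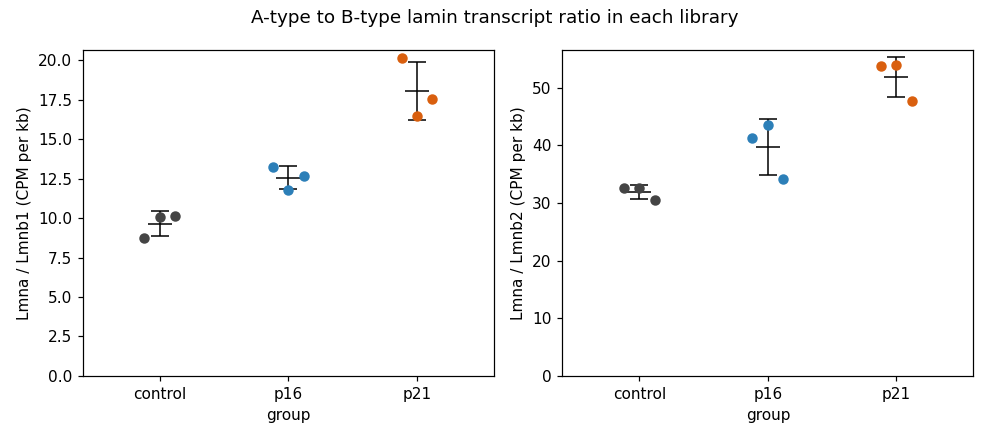
Ratio of Lmna to Lmnb1 (left) and of Lmna to Lmnb2 (right) transcripts, each in CPM per kilobase, in each library of the control, p16 and p21 groups (points; cross and whiskers, mean and SD, n = 3; vertical axes from 0). The Lmna to Lmnb1 ratio runs from 8.716 in a control to 20.12 in a p21 library without overlap between groups.

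Of the inner membrane proteins, Tmpo (chromosome 10, 91147571 to 91181315, minus strand) and Lbr (chromosome 1, 181815335 to 181843046, minus strand) fell in p21 and in p16 cells, as both B-type lamins did. Tmpo encodes the LAP2 isoforms, some anchored in the membrane and LAP2 alpha free in the nucleoplasm, which the counts pool. It stood at 128.5, 108.5 and 111.6 CPM in control, 86.33, 86.76 and 81.21 CPM in p16 and 53.72, 61.64 and 57.51 CPM in p21 libraries, again with control replicate 1 highest and no overlap between groups. Tmpo was 2.016-fold lower in p21 cells (log2 fold change -1.01 ± 0.0752 SE, adjusted p = 1.81e-05), 1.371-fold lower in p16 cells (-0.46 ± 0.0745, adjusted p = 0.0103) and 1.471-fold lower in p21 than in p16 cells (adjusted p = 0.00235). All 3 Tmpo calls were kept in the 16 alternative fits.

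Lbr, whose product binds B-type lamins and heterochromatin and also works in sterol synthesis, stood at 56.83, 48.54 and 47.93 CPM in control libraries. It was at 41.45, 37.63 and 37.23 CPM in p16 and at 27.06, 29.77 and 29.39 CPM in p21 libraries, so that replicate 1 was the highest library in the control and p16 groups but the lowest in the p21 group. Lbr was 1.778-fold lower in p21 than in control cells (log2 difference -0.83, SE 0.0764; adjusted p = 5.11e-05) and 1.318-fold lower in p16 cells (-0.40 ± 0.0757, adjusted p = 0.0182). It was 1.349-fold lower in p21 than in p16 cells (adjusted p = 0.00769). For p16 the call depended on single libraries, and dropping p16 replicate 2 (adjusted p = 0.0811) or replicate 3 (adjusted p = 0.0622) ended it.

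Of the other LEM domain genes, Emd fell in p21 cells and Lemd3 did not pass in any comparison. Emd (chromosome X, 74254687 to 74261548, plus strand), the emerin gene mutated in Emery-Dreifuss muscular dystrophy, had the least spread of the 10 genes in control libraries, at 86.3, 85.32 and 86.17 CPM. It stood at 78.52, 80.22 and 79.25 CPM in p16 and at 66.89, 70.58 and 68.63 CPM in p21 libraries. Although Emd is X-linked, replicate 3 lay between the other replicates in each group. Emd was 1.251-fold lower in p21 cells (adjusted p = 0.000279) and 1.155-fold lower in p21 than in p16 cells (adjusted p = 0.0116, lost without p21 replicate 1 at adjusted p = 0.0669). Between p16 and control cells it did not pass, with a log2 difference of -0.12 ± 0.0405 SE (adjusted p = 0.116), although the libraries did not overlap.

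Lemd3 (chromosome 10, 120923413 to 120979332, minus strand), the gene of MAN1, which restrains SMAD signalling, was the gene of the 10 with the smallest difference between p21 and control cells. Its 9 libraries lay between 18.8 and 22.49 CPM, both of these being controls. The log2 difference was 0.01 for p21 (adjusted p = 0.931, 95% interval -0.1446 to 0.1616), 0.07 for p16 (adjusted p = 0.584, interval -0.0822 to 0.2236) and -0.06 between them (adjusted p = 0.595, interval -0.2153 to 0.0909). A change of about 1.168-fold therefore lies within the p16 interval.

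Banf1 (chromosome 19, 5364638 to 5367168, minus strand) encodes BAF, a small protein that bridges DNA and LEM domains and helps to close the nuclear envelope after mitosis. It stood at 107.3, 96.8 and 92.6 CPM in control, 84.1, 84.04 and 80.93 CPM in p16 and 70.77, 73.74 and 70.68 CPM in p21 libraries. The groups did not overlap. Banf1 was 1.379-fold lower in p21 cells (log2 fold change -0.46 ± 0.0579 SE, adjusted p = 0.000272), 1.191-fold lower in p16 cells (-0.25 ± 0.0578, adjusted p = 0.0316) and 1.157-fold lower in p21 than in p16 cells (adjusted p = 0.042). The last 2 calls were the weakest of the lamina genes: the p16 call was lost in 8 and the p21 minus p16 call in 9 of 16 alternative fits, among them those leaving out any one p16 library (adjusted p = 0.0963, 0.102 and 0.0979 for the p16 call). Without replicate 3 of all groups neither call held (adjusted p = 0.0507 for p16 and 0.0569 for p21 minus p16). The p16 call was also lost without control replicate 1 (0.0501) or 2 (0.0799) or p21 replicate 1 (0.0559). The p21 minus p16 call was lost without control replicate 2 (0.0646) and without any one p21 library (0.143, 0.0735 and 0.0864) or p16 library (0.122, 0.111 and 0.075). The exons of Banf1 overlap by 428 bases with those of Eif1ad on the other strand, and the library kit does not mark strand, so reads of these genes cannot be told apart there. Eif1ad was 1.258-fold lower in p21 cells (25.24 ± 1.3 against 31.74 ± 1.66 CPM, adjusted p = 0.00197) and 1.177-fold lower in p16 cells (adjusted p = 0.0437). Its part in the Banf1 counts was not tested.

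The SUN genes encode related proteins of the same bridge, of which Sun2 was called in p21 cells and Sun1 was not; the difference between the genes was not tested. Sun2 (chromosome 15, 79724070 to 79742536, minus strand) stood at 137.7, 153.1 and 146.2 CPM in control, 147.2, 143.2 and 153.4 CPM in p16 and 127.1, 122 and 124.6 CPM in p21 libraries. The p21 libraries were below all others, while control and p16 libraries overlapped. Sun2 was 1.17-fold lower in p21 than in control cells (log2 difference -0.23, SE 0.0508, adjusted p = 0.00635) and 1.188-fold lower than in p16 cells (-0.25 ± 0.0509, adjusted p = 0.0143). Between p16 and control cells the log2 difference was 0.02 (adjusted p = 0.838, 95% interval -0.0914 to 0.136). The p21 minus p16 call did not hold when replicate 3 was dropped from all groups (adjusted p = 0.0546), nor without p21 replicate 1 (0.0569), without p21 replicate 2 (0.0588) or without p16 replicate 1 (0.0518).

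Sun1 (chromosome 5, 139200637 to 139249840, plus strand) ranged from 80.16 to 88.88 CPM in control, from 77.28 to 83.83 CPM in p16 and from 76.3 to 79.85 CPM in p21 libraries. The p21 libraries lay just under the lowest control, and the p16 libraries overlapped both groups. Sun1 did not pass in p21 cells (log2 difference -0.12 ± 0.0538 SE, adjusted p = 0.108), in p16 cells (-0.09, adjusted p = 0.335) or between them (-0.03, adjusted p = 0.786). Without control replicate 1 the p21 difference passed (-0.155, adjusted p = 0.0417).

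The nesprins, outer membrane partners of the SUN proteins, were tested with other genes of the same bridge. Of 7 in that list 5 could be tested, and 3 of these fell in p21 cells (median -0.868), against 20.7% of all genes tested. None passed in p16 cells, and none of the 5 passed between p21 and p16 cells, so a difference between these groups was not shown (adjusted p = 0.0839 for Syne2, 0.0604 for Syne3 and 0.215 for Syne4). Syne2, which encodes the giant actin-binding nesprin-2, was at 24.41, 32.27 and 35.55 CPM in control, 16.03, 22.71 and 16.93 CPM in p16 and 10.11, 15.66 and 11.55 CPM in p21 libraries. The p21 libraries lay below all others, and all p16 libraries below all controls. Its log2 fold change was -1.30 ± 0.197 SE in p21 cells (adjusted p = 0.000762) and -0.73 ± 0.193 in p16 cells (adjusted p = 0.052, not passing). Syne3 fell from 33.21 ± 7.08 to 18.2 ± 1.84 CPM in p21 cells (adjusted p = 0.000974), and Syne4 was called at only 0.09415 ± 0.0213 against 0.2477 ± 0.0853 CPM (adjusted p = 0.0323). Syne1, the gene of nesprin-1, did not pass (43.38 ± 4.18 against 51.63 ± 9.75 CPM, adjusted p = 0.187).

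A further list held LEM domain and inner membrane proteins other than the members. It also held torsin genes, so it was not limited to the inner membrane. Of its 13 tested genes, 4 fell, 2 rose and 7 did not pass in p21 cells, with a median of -0.0304 against -0.0113 over all genes. The counts are near the background, 20.7% of all genes being called lower and 19.3% higher. Ankle1, a LEM domain nuclease gene, was at 2.636 ± 0.286 against 6.193 ± 0.735 CPM (adjusted p = 9.23e-05), and Nrm, the nurim gene, at 6.872 ± 0.35 against 11.14 ± 0.67 CPM (adjusted p = 0.00031). Tmem201, whose product SAMP1 binds emerin and lamins, fell to 27.03 ± 0.542 from 34.73 ± 1.97 CPM. Tor1aip2, the gene of the torsin activator LULL1, rose to 176.6 ± 1.14 from 142.1 ± 7.22 CPM (adjusted p = 0.000828). In p16 cells 3 of the 13 fell, Ankle1, Nrm and Tmem201, and none rose, against 3.65% of all genes called lower and 3.57% higher.

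Of 7 tested genes for lamin tail processing, 2 rose, 1 fell and 4 did not pass in p21 cells. These shares are near those over all genes, of which 19.3% rose and 20.7% fell, so the count is no result about the group. Icmt, the methyltransferase that caps farnesylated tails, stood at 127, 122.5 and 112.5 CPM in control, 147.7, 154 and 151.7 CPM in p16 and 190.8, 187.7 and 187.2 CPM in p21 libraries. It was higher in p21 cells (log2 difference 0.64, SE 0.0507, adjusted p = 2.28e-05), in p16 cells (0.32 ± 0.0506, adjusted p = 0.00912) and in p21 over p16 cells (0.32, adjusted p = 0.00462), and its groups ran opposite to the order seen in Lmnb1. Rce1, the protease that acts before Icmt, fell in p21 cells (16.64 ± 1.05 against 22.13 ± 0.626 CPM, adjusted p = 0.000645) and in p16 cells (adjusted p = 0.0296). Narf, whose product binds prelamin A, rose in p21 cells (31.86 ± 2.12 against 24.95 ± 1.8 CPM, adjusted p = 0.00293). Zmpste24, which matures prelamin A, did not pass in p21 cells (103.2 ± 4.59 against 96.72 ± 10.1 CPM, adjusted p = 0.355).

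Genes listed as chromatin partners of the lamina fell in p21 cells in 12 of 15 cases and in p16 cells in 5 of 15. The list was chosen with earlier results of these data known, so its shares are a description and no test. None was higher, and the medians were -0.439 and -0.185. Across all genes tested, 20.7% were called lower in p21 cells and 3.65% in p16 cells. Uhrf1 went from 109.7 ± 9.06 to 49.76 ± 4.02 CPM in p21 cells (adjusted p = 1.43e-05) and Suv39h1, a histone H3 lysine methyltransferase gene, from 39.06 ± 3.96 to 24.48 ± 0.54 CPM (adjusted p = 8.95e-05). Hmgb2 fell from 103.8 ± 5.63 to 45.89 ± 5.06 CPM (adjusted p = 1.48e-05), and Hmgb1 from 393.2 ± 13.2 to 216.3 ± 20.6 CPM (adjusted p = 2.12e-05). Pore genes next to the lamina fell in p21 cells in 7 of 10 cases (median -0.286), with Nup107 at 47.57 ± 1.02 against 70.34 ± 5 CPM and Ndc1, which anchors pores in the membrane, at 29.41 ± 1.12 against 41.67 ± 2.78 CPM. None of the 10 pore genes passed in p16 cells.

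Of 18 tested genes that take the lamina apart or rebuild it, 6 fell, 3 rose and 9 did not pass in p21 cells. Over all genes 20.7% fell and 19.3% rose, and the list median of -0.00626 was near the -0.0113 of all genes, so the list as a whole did not stand apart. The falls included the mitotic kinase genes Cdk1 (63.08 ± 5.64 against 121.3 ± 13.6 CPM, adjusted p = 5.41e-05) and Plk1 (log2 fold change -1.16 ± 0.0869 SE, adjusted p = 1.88e-05) and the cyclin genes Ccnb1 (41.9 ± 3.54 against 97.25 ± 8.37 CPM, adjusted p = 1.14e-05) and Ccnb2 (-1.11, adjusted p = 1.48e-05). Markers of cycling cells were lower as well: 16 of 17 fell in p21 cells (median -0.991) and 10 of 17 in p16 cells (median -0.391). Of the 10 lamina genes, 7 fell in p21 cells (median -0.393) and 5 in p16 cells (median -0.192). In p16 cells 3.65% of all genes tested were called lower. Mki67 stood at 247.5 to 281.2 CPM in control, 166.8 to 191 CPM in p16 and 92.32 to 114.5 CPM in p21 libraries, without overlap. The part of cycling in the lamina differences was not tested.

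**Figure D4:**
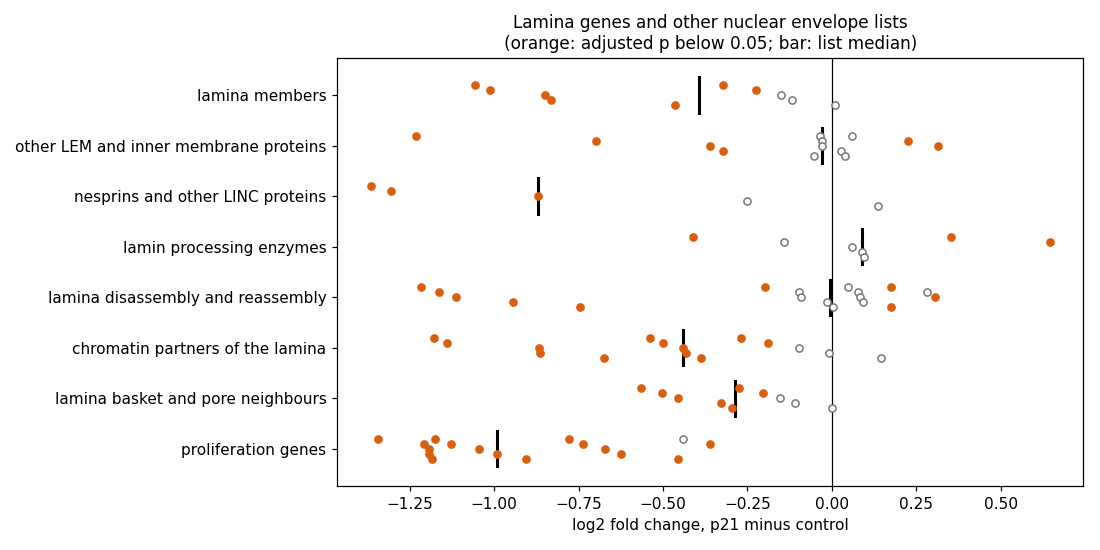
Log2 fold change of p21 minus control cells (horizontal axis) for each tested gene of the lamina genes and 7 other lists (vertical axis). Orange points passed an adjusted p of 0.05, open points did not, and the bar is the list median, -0.393 for the lamina genes and -0.991 for the proliferation genes.

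Genes whose pattern was most like that of Lmnb1 were sought among 10445 other genes whose mean log2 CPM reached 2, by Pearson's r of log2 CPM over the 9 libraries. Since these fall into 3 groups, r mostly reads the group means, and it is given as a description. The closest were Ptbp1, a splicing regulator gene (r = 0.9958), Pfas of purine synthesis (0.9947), the RNA-binding protein gene Dazap1 (0.994), Pold1, a DNA polymerase delta subunit gene (0.9935), and Dnmt1, the maintenance DNA methyltransferase gene (0.9933). Dnmt1 was at 152.8 CPM on average in control, 115.7 in p16 and 85.24 in p21 cells. The genes running most opposite were Fbxl20 (r = -0.9952), Itm2b (-0.9942) and Rab33b (-0.9933), and Fbxl20 was at 41.01, 53.74 and 74.68 CPM in the same order. The closest to Lmna were Sptssa (0.9815), Mecom (0.9807), Slc1a3 (0.9697), Atp5k (0.9674) and Ctu2 (0.967). Sptssa, a small subunit gene of serine palmitoyltransferase, was at 29.73 CPM in control, 27.72 in p16 and 27.58 in p21 cells, and did not pass in any comparison.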

How the data were processed

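RNA of 9 libraries, 3 each from control, p21 and p16 cells, was read from the deposited table of whole-number counts per gene symbol, left unnormalised by the authors. The submitters' processing notes name mm10, featureCounts 1.4.6 of Subread, Bowtie2 2.2.6 and TopHat2 2.0.14. Gene annotation and multi-mapped reads: not given in the sources used here. Groups and replicate numbers come from the sample titles. Genes were kept with filterByExpr, TMM-scaled, and fitted with edgeR 4.0.16 (quasi-likelihood F test, 3 group means, R 4.3.3), with Benjamini-Hochberg adjustment over all 14572 genes. SE is the log2 fold change over the root of F, and 95% intervals are unadjusted. The pipeline was tested on simulated data. Positions and lengths are from GENCODE M21.

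The members and gene lists were chosen with earlier results of these data known. Named genes are the members, Cdkn1a, Cdkn2a, Mki67, up to 4 called genes per other list by lowest adjusted p in p21 minus control, and the genes most like Lmnb1 or Lmna. Col1a1, Eif1ad, Syne1, Zmpste24, Xist, Ddx3y, Acta1, Des and Myog were named after their values were seen. All within-group library pairs differed beyond sampling noise (chi-square per degree of freedom 10.59 to 104.5). Deviations from group means were correlated between same-numbered libraries, at 0.251, 0.109 and 0.545 for p16 and control. For p21 and p16 the values were 0.159, 0.287 and 0.478. For p21 and control they were 0.183, 0.0253 and 0.489, with replicate 2 below the limit of 0.1. Some unlike-numbered pairs were higher than a same-numbered pair. Replicate 2 reached 0.299 (p16) and 0.358 (p21) with control replicate 1. The main fit held no block, so its p-values use no pairing. The replicate block is an alternative, with pairs taken on the data alone. Alternatives were DESeq2 1.42.0, other scalings, no filter, the replicate block, 2-group fits, replicates 1 and 2, and leaving out each library.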

Additional observations from a re-analysis of the deposited data

How the results depend on the processing

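No lamina gene changed direction past the threshold in any alternative, and in p21 minus control the 7 calls held in all 16. With the replicate block, Lmna (adjusted p = 0.00765) and Sun1 (0.0355) also passed in p21 minus control, which makes 9 members, and the block changed no other member's call beyond the p16 call of Lmna given above. In p16 minus control, genes called higher and lower, 520 and 532 by the main fit, were 925 and 880 with the DESeq2 Wald test, 1252 and 1221 with the replicate block, 299 and 256 with only the 2 groups compared and 340 and 253 with replicates 1 and 2. They ranged from 156 to 498 and from 66 to 451 when single libraries were left out. The lowest pair came without p16 replicate 2, then 192 and 92 without p16 replicate 1, 262 and 163 without p16 replicate 3 and 215 and 160 without control replicate 2. The genes lower also numbered 353 without control replicate 3 and 348 without p21 replicate 1. Members lower ranged from 2 to 5. In p21 minus p16, genes called higher and lower were 1715 and 1781 with the block and ranged from 284 to 1218 and from 316 to 1246 with single libraries left out, falling below 902 and 968 by over 1.5 times without p21 replicate 1 (284 and 316) or 2 (432 and 490) or p16 replicate 1 (335 and 454), 2 (405 and 470) or 3 (435 and 524). Members lower ranged from 4 to 7. Leaving out a library leaves 2 in its group. Without the low-count filter Banf1 no longer passed in p21 minus p16 (adjusted p = 0.0505). The Lmna to Lmnb1 log2 ratio differences ranged from 0.823 to 0.966, 0.312 to 0.428 and 0.44 to 0.584 for p21 against control, p16 against control and p21 against p16. No scaling moved the median of all genes by over 0.1. Depth did not limit the members, each with at least 1189 counts per library.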
